A study of Mus musculus with 29 samples.

Results

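Chemokines and their receptors were followed in the myocardium of mice that were taken into heart failure (HF) and then allowed to recover. The members were genes of the deposited expression table whose symbols are those of a numbered CC or CXC chemokine, a numbered CC or CXC receptor, fractalkine (Cx3cl1) and its receptor Cx3cr1, or Xcl1 and Xcr1. They come to 57 of the 29,955 genes, 38 ligands and 19 receptors. Of these, 24 had a mean of at least 0.5 FPKM (fragments per kilobase of transcript and per unit of library size, a level per length) over the libraries and were tested, among 12,759 genes tested in all. They were 20 ligands and 4 receptors. The other 33 were too low, and 3 of them, Ccl19, Ccl20 and Ccl26, were listed at 0 in every library. Cx3cr1, with a mean of 0.54 FPKM, was just inside this limit, and Cxcl10, with 0.499 FPKM, was just outside it. Ccr2, Cx3cr1 and Cxcl13 passed the limit only through the HF libraries: over the 19 other libraries their means were 0.465, 0.279 and 0.151 FPKM. A filter of this kind favours members that were high in HF, as it does for 261 of the 12,759 genes, so the counts of members higher in HF are descriptions and support nothing by themselves.

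All mice were C57BL6 and were 3 months old when the protocol began. For HF their drinking water held 1% NaCl together with 0.3 mg/ml of L-NAME, which blocks nitric oxide synthesis, for 5 weeks, and from the end of the first week an osmotic pump that lasts 28 days gave 0.7 mg/kg/day of angiotensin II. Hearts were taken in HF at week 3 (2 libraries) and week 5 (3 libraries). Recovery mice went through the same 5 weeks and were then left untreated until study weeks 7, 9, 11, 13 and 19, which the labels count as recovery weeks 2, 4, 6, 8 and 14 (2, 2, 3, 2 and 5 libraries). Control mice had no HF protocol and were age-matched to the last time point (Control week 19, 5 libraries). This control group stands in for every comparison, because the columns named for the week 5 controls outnumber the labelled samples, so HF and its control also differ in age. The labels call the tissue whole heart or whole ventricle, whereas the methods describe the frozen apical portion. The mice were treated in several cohorts, and the cohort of a library is not given in the sources used here. Nothing ties a column to 1 animal beyond the sample names, so p-values measure the spread between these libraries.

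Chemokines are small secreted proteins that draw leukocytes along a gradient, and they act through G protein-coupled receptors on the target cell. CC ligands such as Ccl2, Ccl7 and Ccl12 recruit monocytes through Ccr2 and related receptors. Resident macrophages of the heart are known as a source of several CC ligands. Cxcl12 is made by stromal and endothelial cells and acts through Cxcr4, and Cxcr7 (also called Ackr3) takes it up without G protein signalling.

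The 7 cardiomyocyte markers summed to between 15,728 and 27,193 FPKM over all libraries. The HF week 3 libraries were the lowest, at 15,759 and 15,728 FPKM, against 21,083 to 25,857 in the controls. There 4 of 7 markers were called lower, against 27.6% of all genes. HF week 5 held 17,871, 24,988 and 21,122 FPKM. The atrial myocyte list (Myl7, Nppa, Sln and Myl4) stood apart. It summed to 81,731 FPKM in HF week 5 library 1, to 2,515 and 2,229 in the other libraries of that group, to 7,737 and 14,050 in HF week 3, and to 89.6 to 349 in the controls. Its members did not move as 1: Nppa was listed at 0 in both HF week 3 libraries, where the other 3 genes were at 1,805 to 5,773 FPKM, and it made up 2,214 of the 2,229 FPKM in HF week 5 library 3, where Myl7 was at 6.16. Adipocyte markers summed to 227, 209 and 1.37 FPKM in the HF week 5 libraries and to at most 0.310 in the controls. In HF week 3 library 1, 12,816 genes were above 0, against 16,339 to 18,091 in the other 23 libraries, and its low values showed no steps from which depth could be read. Relative depth of the other libraries ran from 0.728 to 1.4. The 10 highest genes held 27.9% to 37.4% of the FPKM in Recovery weeks 7 to 13 and 14.6% to 18.8% in HF week 5 and in both groups of week 19, so that recovery at weeks 7 to 13 cannot be told apart from this split. In HF week 3 that share was 19.8% in library 1 and 37.5% in library 2, the latter the highest of all libraries. In bulk tissue, fewer cells of a type and less RNA per cell cannot be told apart.

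At HF week 5, the genes for the monocyte and macrophage receptors Ccr2 and Cx3cr1 and for the ligand Cxcl16 were higher than in Control week 19, and the eosinophil chemokine Ccl11 and the homeostatic chemokine Cxcl14 were lower. These 5 of 24 members passed an adjusted p of 0.05 (limma, Benjamini-Hochberg over all genes tested), 3 higher and 2 lower, against 24% of all genes tested (11.6% higher and 12.4% lower), so the share of members called was close to the background. With quantile normalization of the libraries 1 was called higher and 2 lower. Higher mean log2 values in HF were seen for 17 of 24 members, against 54% of all genes. The members' median log2 fold change was 0.40, against 0.04 for all genes. Of the 24, 3 members (Ccr2, Cx3cr1 and Cxcl13) were tested only through the HF libraries, as were 261 of the 12,759 genes. This share and this median therefore support nothing by themselves, and neither do the calls of Ccr2 and Cx3cr1. By recovery week 19, Ccl11 and Cxcl14 had risen again and Ccr2, Cx3cr1 and Cxcl9 had fallen relative to HF week 5, again 5 of 24 members against 24.2% of all genes (12.3% higher and 12% lower). Recovery week 19 was then set against Control week 19, and no member passed the adjusted test, where 0.0235% of all genes did. At an unadjusted p under 0.05 there were 2 members, Ccl8 and Cxcl14, both higher after recovery, against 2.88% of all genes. The comparisons share the HF week 5 and Control week 19 libraries, so their values are not independent of each other.

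**Figure D1:**
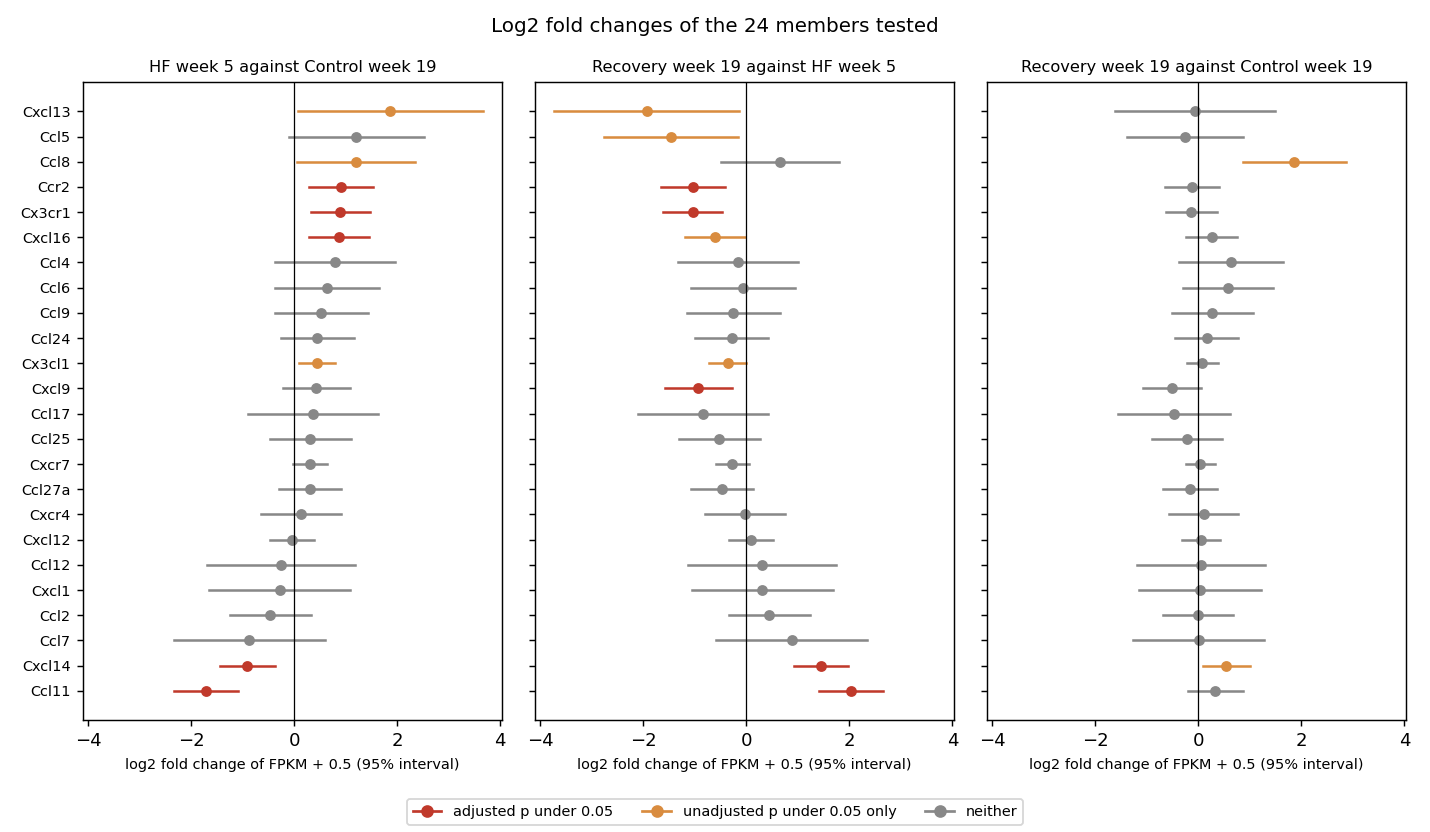
Log2 fold changes of FPKM + 0.5 (x axis) with 95% intervals for the 24 members tested (y axis) in 3 comparisons, coloured by whether limma's adjusted or only its unadjusted p was under 0.05. Ccl11 and Cxcl14 lie at the bottom of the first panel with values of -1.71 and -0.91 and on the right of the second with 2.04 and 1.45, and in the third panel Ccl8 lies farthest from 0 with 1.86.

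Ccl11 (eotaxin-1) attracts eosinophils through Ccr3, and in tissue it is made largely by fibroblasts and smooth muscle. Its level was 5.80, 3.87, 4.52, 4.47 and 6.85 FPKM in the Control week 19 libraries and 0.489, 1.62 and 1.78 FPKM in HF week 5. It was 2.16 and 0.741 FPKM in HF week 3. Every HF library lay below every control library, and of the 24 members only Ccl11 did so at week 5, where 14.7% of all genes did. The change at week 5 was -1.71 on the log2 scale of FPKM + 0.5 (SE 0.30, 95% interval -2.33 to -1.09, adjusted p = 0.000621 by limma), and at week 3, from 2 libraries, it was -1.60 (adjusted p = 0.000797). After the protocol ended the level was 3.82 and 3.16 FPKM at week 7, then 2.91 and 4.86 at week 9. It was 5.67, 4.48 and 3.51 FPKM at week 11. Week 13 held 5.12 and 9.44 FPKM and week 19 held 5.72, 9.75, 5.28, 5.83 and 6.24 FPKM. All of these recovery libraries lay above all 5 HF libraries, and the rise from HF week 5 to Recovery week 19 was 2.04 on the log2 scale (SE 0.30, interval 1.42 to 2.66, adjusted p = 0.000162). Ccl11 stayed past the threshold in all 17 alternatives of either week 5 comparison, with adjusted p-values of 0.000208 to 0.00869 and of 5.27e-05 to 0.00439. Of markers measured beside it, the 6 fibroblast genes summed to 229 to 332 FPKM in the controls and to 322 to 628 in HF week 5, and 4 of 6 were called higher, against 11.6% of all genes. Smooth muscle and pericyte markers summed to 101 to 124 FPKM in the controls and 124 to 207 in HF week 5. The part of either in the result was not tested.

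Cxcl14 is a chemokine of resting epithelium and connective tissue and was the second most abundant member, with a mean of 39.0 FPKM over the 24 libraries. The controls held 32.2, 36.3, 37.4, 26.4 and 34.0 FPKM, and HF week 5 held 11.8, 15.8 and 27.8 FPKM. HF week 3 gave 32.5 and 16.6 FPKM. HF week 5 library 3 lay within the control range, and the other 2 libraries of that group lay below it. The change at week 5 was -0.91 (SE 0.25, interval -1.44 to -0.38, adjusted p = 0.0140). It missed the threshold in 1 of 17 alternatives, without HF week 5 library 1 (adjusted p = 0.134, range 0.00254 to 0.134). Recovery week 7 held 39.2 and 30.6 FPKM, week 9 held 43.5 and 53.6, week 11 held 42.4, 52.0 and 51.6, and week 13 held 39.2 and 66.0. Recovery week 19 gave 37.8, 55.2, 41.5, 45.2 and 66.9 FPKM. Each of these 5 was above each HF week 5 library, and the rise was 1.45 (SE 0.25, interval 0.92 to 1.98, adjusted p = 0.000624), which passed in all 17 alternatives (0.000193 to 0.0102). They were also above each control library, where 0.925% of all genes lay above without overlap, with a difference of 0.54 (SE 0.22, interval 0.08 to 1.00, unadjusted p = 0.0232, adjusted p = 1).

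The promoter of Cxcl14 is shown because the gene moved with HF and back. It is the RefSeq sequence of mouse build GRCm38.p6 from 250 bases before to 50 bases after the start, at chr13:56296502-56296801 on the minus strand. This build is not the one the expression values were made on, MGSCv37 (mm9). Capitals, in this and the other promoters printed, mark matches on either strand to GAGGAAGT (a site of the PU.1 type), GGG and CC with any 5 bases between them (NF-kB type) or TATAAA (the TATA box). The Cxcl14 window holds none of these letters.
Cxcl14: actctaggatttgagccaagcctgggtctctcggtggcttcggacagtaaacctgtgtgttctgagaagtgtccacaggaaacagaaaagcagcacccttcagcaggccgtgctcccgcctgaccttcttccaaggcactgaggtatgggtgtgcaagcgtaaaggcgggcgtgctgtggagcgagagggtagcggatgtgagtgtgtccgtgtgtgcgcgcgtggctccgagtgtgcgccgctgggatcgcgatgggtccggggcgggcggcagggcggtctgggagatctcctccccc

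Cxcl16 is a chemokine with a transmembrane form that is made by macrophages and endothelium and binds Cxcr6. The control libraries held 5.12, 6.71, 5.44, 4.53 and 8.82 FPKM. The HF week 3 libraries held 19.2 and 17.4 FPKM and those of HF week 5 held 20.5, 7.45 and 9.34. Both week 3 libraries lay above all controls, and at week 5 library 2 lay within the control range. The 3 highest libraries, those of HF week 3 and HF week 5 library 1, were also the 3 with the highest atrial marker sums. The difference from control was 1.54 at week 3 (adjusted p = 0.000591) and 0.87 at week 5 (SE 0.28, interval 0.29 to 1.45, adjusted p = 0.0281). At week 5 it missed the threshold in 6 of 17 alternatives, which were those without the low-value filter, with only the compared groups fitted, and without HF week 5 library 1 or control library 1, 3 or 4 (adjusted p from 0.0091 over all alternatives to 0.282 without HF week 5 library 1). Recovery libraries held 4.60 and 4.73 FPKM at week 7, 5.28 and 7.39 at week 9, 7.11, 5.74 and 9.62 at week 11, 8.07 and 11.4 at week 13. The week 19 libraries held 5.65, 8.81, 5.94, 6.15 and 10.8 FPKM. Recovery week 19 overlapped both other groups, and its difference from HF week 5 was -0.61 with an adjusted p of 0.114.

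Cxcl9 is an interferon-induced ligand of Cxcr3 that draws activated T cells. It was at 2.06, 2.03, 1.55, 1.22 and 3.31 FPKM in the controls, at 1.13, 2.61 and 6.51 FPKM in HF week 5, and at 1.07, 1.15, 1.5, 0.994 and 1.45 FPKM in Recovery week 19. HF week 5 overlapped both other groups, and its library 3 was the highest of all 24. The fall from HF week 5 to Recovery week 19 was -0.93 (SE 0.31, interval -1.58 to -0.28, adjusted p = 0.0344). The call was lost in 9 of the 17 alternatives, among them those without HF week 5 library 2 or 3 and without Recovery week 19 library 1, 2 or 4, and adjusted p ran from 0.00295 to 0.313, the latter without HF week 5 library 3. HF week 3 held 1.69 and 2.15 FPKM. Recovery week 7 held 1.72 and 1.90 FPKM, week 9 held 1.64 and 1.65, week 11 held 2.07, 1.77 and 1.27, and week 13 held 3.02 and 3.54.

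**Figure D2:**
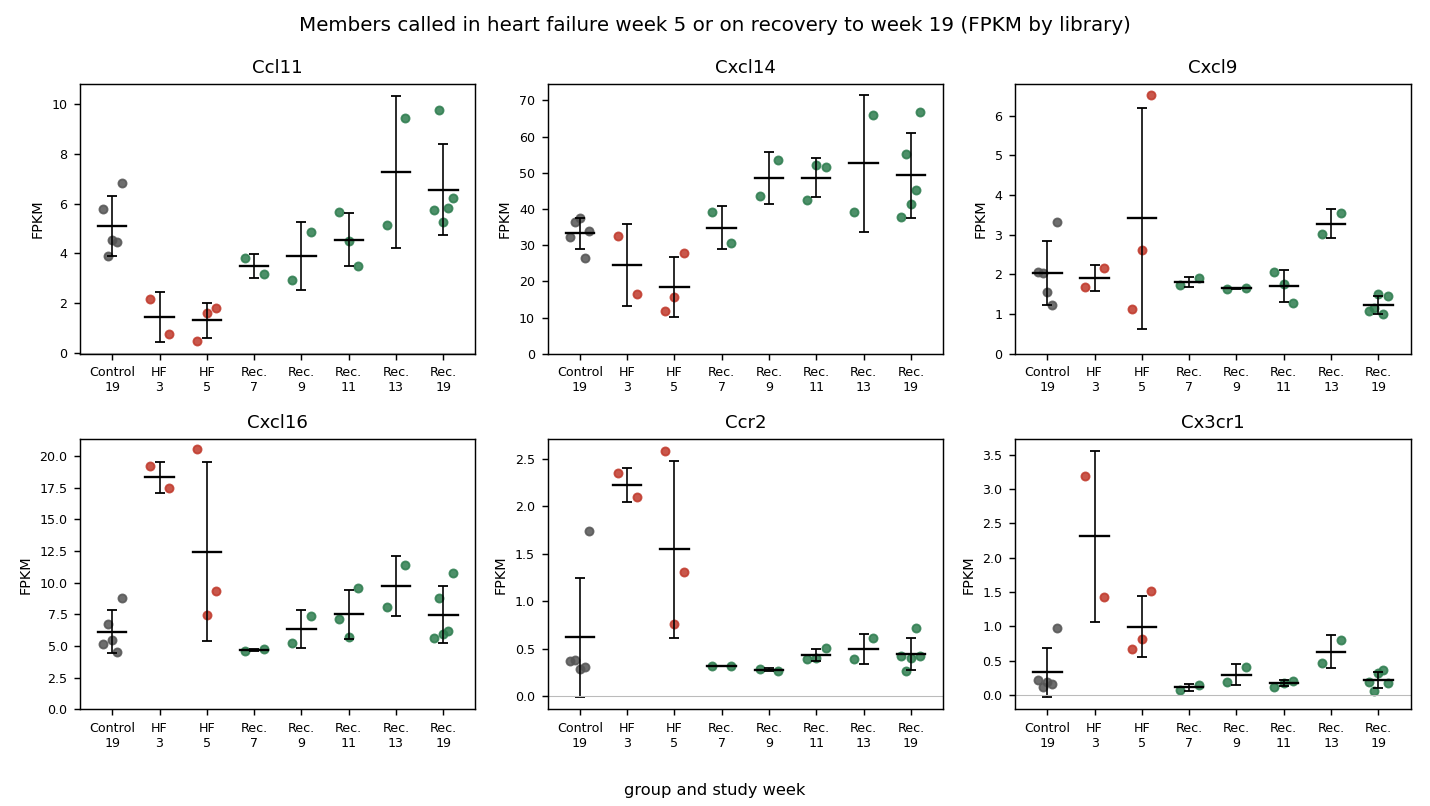
FPKM (y axis) of the 6 members that passed the adjusted test at HF week 5 or between HF week 5 and Recovery week 19, by group and study week (x axis). Points are libraries, and bars give the mean ± SD of each group. Ccl11 in HF week 5 lies at 0.489 to 1.78 FPKM, below the controls at 3.87 to 6.85, whereas for the other 5 genes HF week 5 overlaps the controls.

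The most abundant member was Cxcl12, with a mean of 42.9 FPKM. The controls held 48.2, 43.9, 44.5, 40.9 and 42.8 FPKM, and HF week 5 held 24.7, 55.6 and 57.0. HF week 3 held 18.0 and 29.0 FPKM. HF week 5 library 1 lay below all controls and libraries 2 and 3 above all of them. The log2 fold change was -0.04 at week 5 (interval -0.47 to 0.39, adjusted p = 0.908) and -0.93 at week 3 (interval -1.42 to -0.44, adjusted p = 0.00290). Without HF week 3 library 1 the adjusted p at week 3 was 0.124 (range 0.000822 to 0.124). The 3 lowest libraries for Cxcl12 were those with the 3 highest sums of atrial markers, 81,731, 14,050 and 7,737 FPKM, as for 9.32% of all genes tested. The same 3 libraries were the highest for 4 members, Cxcl16, Ccr2, Ccl9 and Ccl25, as for 7.41% of all genes tested. The part of the atrial markers in these results was not tested. Recovery week 7 held 50.1 and 51.4 FPKM, week 9 held 37.7 and 41.3, week 11 held 48.1, 42.0 and 35.4, and week 13 held 42.3 and 48.4. Recovery week 19 held 50.4, 40.0, 47.1, 49.1 and 42.2 FPKM.

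Cxcl13 attracts B cells through Cxcr5. It was at 15.0 FPKM in HF week 3 library 1 and at 23.9 FPKM in HF week 5 library 1, and at 0.573 FPKM or less in every other library. It was tested only because of these 2 libraries, which are also those that set it apart in HF. HF week 3 library 2 held 0.544 FPKM, and HF week 5 libraries 2 and 3 held 0.573 and 0. The controls held 0.0588, 0.245, 0.124, 0.103 and 0.233 FPKM, Recovery weeks 7 and 9 held 0.0461, 0.112, 0.165 and 0.0505, and week 11 held 0.0640, 0 and 0.423. Week 13 held 0.0642 and 0.499 FPKM and week 19 held 0.209, 0, 0.0661, 0 and 0.402. At week 3 the log2 fold change was 2.63 (adjusted p = 0.0320), and without library 1 it was 0.69 (adjusted p = 0.681, range 0.00169 to 0.681). The call was also lost without the filter on low values (adjusted p = 0.0587) and without control library 1 (adjusted p = 0.0502). At week 5 it was 1.86 (interval 0.06 to 3.66, adjusted p = 0.123), and without library 1 it was 0.18 (adjusted p = 0.902, range 0.0209 to 0.902). The B cell list summed to 0 FPKM in HF week 3 library 1 and to 2.62 in HF week 5 library 1, against 0.823 to 1.99 in the controls. Epicardial markers summed to 35.8 and 59.4 FPKM in these 2 libraries, to 158 in HF week 3 library 2 and to 1.74 to 3.28 in the controls. The part of these in the result was not tested. Cxcl1, a neutrophil chemokine, did not pass in any comparison. It lay between 0.744 and 6.97 FPKM in the controls and between 1.56 and 3.01 in HF week 5.

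Among the CC ligands, Ccl8 (monocyte chemoattractant protein 2) had the highest mean, 20.4 FPKM. The control libraries were at 7.56, 2.82, 3.33, 4.94 and 5.57 FPKM. HF week 3 libraries were at 103 and 15.8 FPKM and HF week 5 libraries at 15.7, 6.07 and 14.6. Both libraries of week 3 and 2 of the 3 of week 5 lay above all controls. The log2 fold change was 3.01 at week 3 (SE 0.63, adjusted p = 0.000677) and 1.20 at week 5 (SE 0.55, interval 0.06 to 2.35, adjusted p = 0.118). Without HF week 3 library 1 the week 3 call was lost (adjusted p = 0.0758, range 3.05e-05 to 0.0758). Recovery week 7 held 2.34 and 2.22 FPKM, below every control library, and week 9 held 4.80 and 8.91. Week 11 held 19.5, 21.4 and 31.4 FPKM and week 13 held 29.4 and 79.4. Week 19 held 10.2, 16.1, 20.2, 10.3 and 53.5 FPKM. All 10 libraries of weeks 11, 13 and 19 lay above all 5 controls, whereas week 9 overlapped them. These weeks were grouped after the values were seen, and how many of all genes did so was not counted. The values of weeks 7 to 13 cannot be told apart from the split in the share held by the 10 highest genes.

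Between Recovery week 19 and Control week 19, Ccl8 differed by 1.86 on the log2 scale (SE 0.48, interval 0.87 to 2.86, unadjusted p = 0.000878), with no overlap, but the adjusted p was 0.80 (range 0.218 to 1). Over Recovery weeks 7 to 13 it differed from control by 1.28 (SE 0.42, interval 0.40 to 2.16, unadjusted p = 0.00668, adjusted p = 0.502). With only the groups compared in the fit the adjusted p of the latter was 0.0431, and over all alternatives it ran from 0.0431 to 1. In that comparison no member was called in the main fit, where 0.0705% of all genes were, and 3 had an unadjusted p under 0.05 (Ccl8, Cxcl14 and Ccl2), against 6.9% of all genes. The sum of the 12 macrophage markers was 335 to 551 FPKM in the controls, 276 and 324 at Recovery week 7 and 320 and 565 at week 9. It was 611 to 862 at week 11, 714 and 955 at week 13 and 411 to 868 at week 19. Of these markers, Cd68 was listed at 0 in HF week 3 library 1. Total FPKM, to which these sums were not scaled, ran from 618,138 in Recovery week 19 library 1 to 1,332,640 in Recovery week 13 library 1. None of the 12 markers passed the adjusted test at Recovery week 19 against control, where 0.0235% of all genes did. An unadjusted p under 0.05 was found for 4 of 12, against 2.88% of all genes. The part of these markers in the result was not tested.

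Ccl9 (a ligand of Ccr1 in the mouse) was at 3.85, 4.34, 4.08, 5.49 and 8.74 FPKM in the controls, at 70.1 and 26.4 in HF week 3 and at 19.8, 4.26 and 4.83 in HF week 5. Only library 1 of HF week 5 was above the control range. At week 3 the log2 fold change of 2.97 (SE 0.50, interval 1.94 to 4.00, adjusted p = 9.37e-05) passed in all 15 alternatives, and without HF week 3 library 1 the adjusted p was 0.00979 (range 5.1e-05 to 0.00979). Recovery libraries were at 2.87 and 1.52 FPKM at week 7, 2.18 and 2.39 at week 9, 9.98, 5.73 and 6.42 at week 11, 4.42 and 7.64 at week 13. The week 19 libraries held 3.38, 8.90, 4.71, 6.4 and 9.87 FPKM. All 4 libraries of weeks 7 and 9 lay below all controls. How many of all genes did so was not counted. In these libraries the 10 highest genes held 27.9% to 30.9% of the FPKM, against 14.6% to 15.6% in the controls. The low values cannot be told apart from this difference, for Ccl9 or for the other members low at these weeks. Ccl6, a neighbour of Ccl9 and another mouse ligand of Ccr1, was at 13.3, 10.4, 9.90, 13.7 and 19.6 FPKM in the controls, 18.1 and 39.9 in HF week 3, and 66.7, 10.04 and 12.4 in HF week 5. Its libraries were at 6.43 and 4.45 FPKM at Recovery week 7, then 7.46 and 6.56 at week 9. Week 11 held 28.8, 15.4 and 16.4 FPKM. Week 13 held 12.3 and 24.8 FPKM, and week 19 held 10.6, 27.6, 15.1, 17.5 and 36.3. As with Ccl9, weeks 7 and 9 lay below all controls and HF week 5 library 1 was the highest of its group.

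Ccl8 and Ccl9 lie on chromosome 11 in separate CC ligand clusters, the former in the order Ccl2, Ccl7, Ccl11, Ccl12, Ccl8, Ccl1 and the latter in the order Ccl5, Ccl9, Ccl6, Ccl3, Ccl4 (RefSeq, GRCm38.p6). Neighbours did not share a direction in HF week 3: in the first cluster Ccl8 rose while Ccl11 and Ccl2 fell. The promoters of Ccl8 (chr11:82114935-82115234, plus strand) and Ccl9 (chr11:83578587-83578886, minus strand) are printed since both rose at week 3 and both were called lower at Recovery week 7 than at HF week 5. In Ccl8, TATAAA stands at bases 219 to 224 of the window, whose first 250 bases lie before the start. In Ccl9 the TATA letters stand at bases 27 to 32 on the other strand and at 157 to 164, where a match on each strand overlaps, and the NF-kB type at bases 216 to 225. Neither holds GAGGAAGT.
Ccl8: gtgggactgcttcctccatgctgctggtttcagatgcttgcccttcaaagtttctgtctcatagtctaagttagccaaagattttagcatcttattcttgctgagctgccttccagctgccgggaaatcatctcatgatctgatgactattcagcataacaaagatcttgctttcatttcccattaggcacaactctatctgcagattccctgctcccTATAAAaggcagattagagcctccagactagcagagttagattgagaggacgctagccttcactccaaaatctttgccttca
Ccl9: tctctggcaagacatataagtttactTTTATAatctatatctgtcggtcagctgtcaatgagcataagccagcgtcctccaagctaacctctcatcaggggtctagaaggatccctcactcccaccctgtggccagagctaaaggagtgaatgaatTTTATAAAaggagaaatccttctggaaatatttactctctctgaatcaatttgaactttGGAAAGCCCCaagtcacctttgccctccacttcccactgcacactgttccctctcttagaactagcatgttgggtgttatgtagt

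Ccl2 (monocyte chemoattractant protein 1) is the main ligand of Ccr2. It was at 5.10, 7.76, 10.3, 3.32 and 7.04 FPKM in the controls, 4.21 and 1.16 in HF week 3 and 3.86, 4.76 and 4.71 in HF week 5. All 3 values of week 5 lay inside the control range, and the log2 fold change was -0.46 (interval -1.24 to 0.32, adjusted p = 0.398). At week 3 Ccl2 fell by 1.28 (adjusted p = 0.0184), and the call was lost with only the groups compared in the fit (adjusted p = 0.0781) and without HF week 3 library 2 (0.377, range 0.006 to 0.377). Recovery libraries held 1.95 and 3.23 FPKM at week 7, 1.60 and 1.88 at week 9, 4.67, 2.87 and 3.67 at week 11, 5.34 and 10.7 at week 13. The week 19 libraries held 4.47, 12, 4.66, 4.07 and 8.80 FPKM. The libraries of weeks 7 and 9 were below all controls, with the same limit as for Ccl9. Over weeks 7 to 13 the difference from control was -0.80 (interval -1.40 to -0.20, unadjusted p = 0.0114, adjusted p = 0.57).

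Ccl7, another Ccr2 ligand, was at 67.7 and 1.58 FPKM in the HF week 3 libraries and at 3.62 to 13.6 FPKM in the controls. The libraries of HF week 3 thus lay on either side of the controls, and the log2 fold change was 0.35 (adjusted p = 0.741). Without library 1 it was -2.17 (adjusted p = 0.0104) and without library 2 it was 2.86 (adjusted p = 0.000398), so that each library alone gave a call in the opposite direction. Ccl25, a ligand of Ccr9, was at 6.21 and 1.64 FPKM in HF week 3 and at 0.606, 5.96e-05, 0.902, 0.827 and 0.986 FPKM in the controls. HF week 5 held 1.38, 0.83 and 0.490 FPKM, and Recovery week 7 held 0.675 and 0.694. Week 9 held 0.371 and 1.09 FPKM, week 11 held 0.871, 1.37 and 1.19, and week 13 held 0.784 and 0.843. Week 19 held 0.192, 1.11, 0.223, 0.444 and 0.453 FPKM. Its rise at week 3 (1.80, adjusted p = 0.00209) was lost without HF week 3 library 1 (adjusted p = 0.143, range 0.000162 to 0.143).

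Of the CC ligands that no comparison of all libraries called, Ccl5, which draws T cells and monocytes, was at 10.7, 2.66 and 7.24 FPKM in HF week 5, against 1.19 to 5.00 in the controls and 0.947 to 3.34 in Recovery week 19. Its difference between Recovery week 19 and HF week 5 was -1.46 (interval -2.77 to -0.16, adjusted p = 0.0944), and 4 of 17 alternatives called it. Ccl12, a further monocyte chemoattractant of the mouse, spanned 0.790 to 7.10 FPKM in the controls and 0.471 to 6.08 in HF week 5. Ccl24 (eotaxin-2) spanned 1.74 to 4.76 FPKM in the controls and 3.68 to 5.90 in HF week 5, unlike Ccl11 with which it shares the receptor Ccr3. Ccl4, Ccl17 and Ccl27a, with means of 0.643, 1.07 and 7.96 FPKM, had no adjusted p under 0.05 either. Summed over all 23 CC ligands, the level was 64.9 ± 13.1 FPKM in the controls (SD, n = 5), 200 ± 115 in HF week 3 (n = 2), 89.9 ± 44.5 in HF week 5 (n = 3), 35.5 ± 6.21 at Recovery week 7 (n = 2), 39.4 ± 0.420 at week 9 (n = 2), 89.4 ± 12.3 at week 11 (n = 3), 140 ± 69.1 at week 13 (n = 2) and 93.7 ± 41.2 at week 19 (n = 5).

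**Figure D3:**
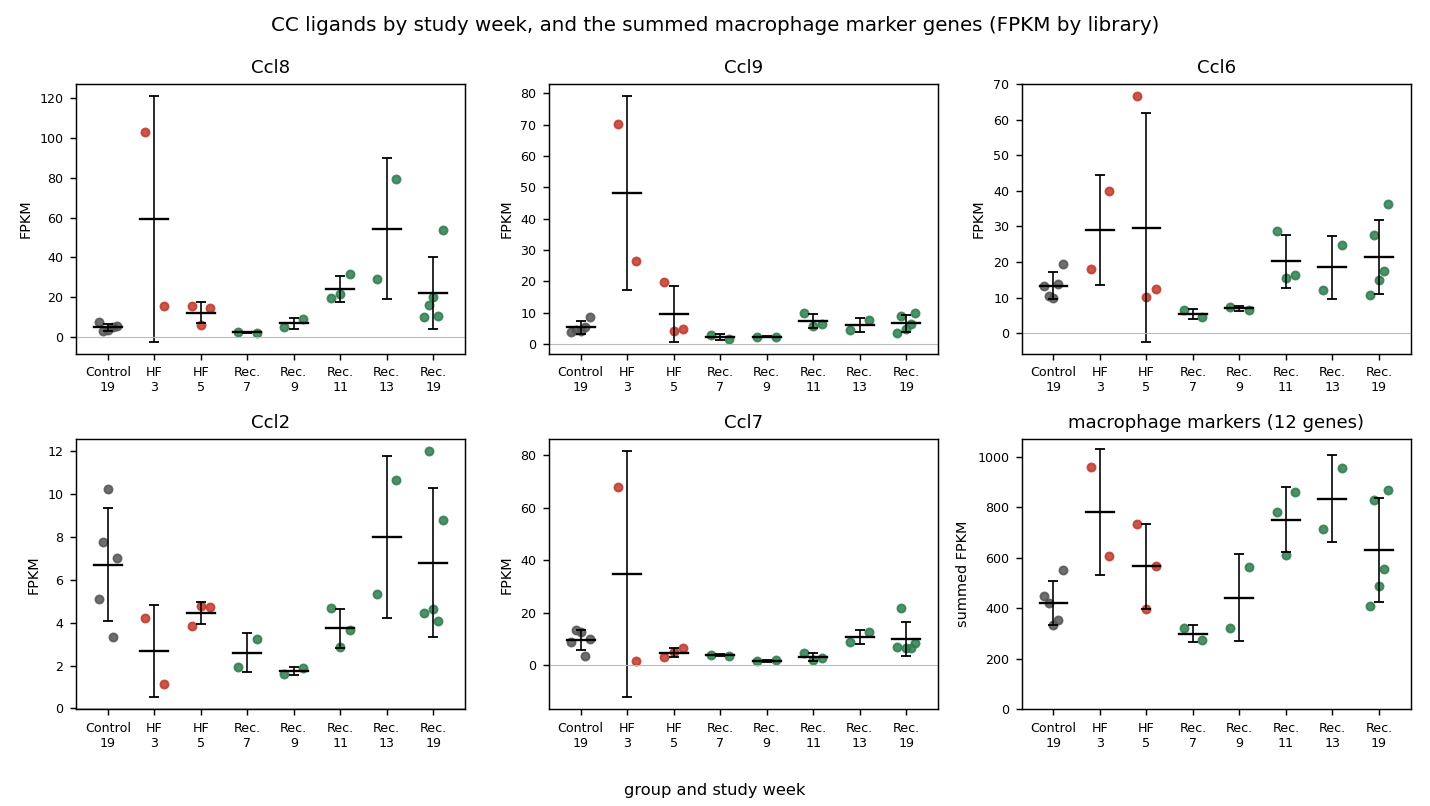
FPKM (y axis) of 5 CC ligands and the summed FPKM of 12 macrophage markers, by group and study week (x axis). Points are libraries, and bars give the mean ± SD. Ccl8 lies at 2.22 and 2.34 FPKM in Recovery week 7 and at 29.4 and 79.4 in week 13, and the marker sum runs from 276 and 324 to 714 and 955 over the same weeks.

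Fractalkine (Cx3cl1), the membrane-bound ligand of Cx3cr1, was the 1 member whose HF week 5 libraries, at 3.72, 4.00 and 4.80 FPKM, all lay above the controls at 3.38, 2.96, 3.12, 2.73 and 2.48, where 14.8% of all genes did so. Recovery week 19 held 2.98, 3.00, 3.13, 3.03 and 3.44 FPKM, all below HF week 5. The log2 fold change in HF was 0.44 (SE 0.17, interval 0.09 to 0.80, adjusted p = 0.0657) and that on recovery was -0.36 (interval -0.72 to -0.01, adjusted p = 0.128), so neither passed. The HF call was gained with only the groups compared in the fit (adjusted p = 0.0328) and without the HF week 3 libraries (0.0340), and over all alternatives adjusted p ran to 0.226. The 6 endothelial markers summed to 269, 212 and 282 FPKM in HF week 5 and to 179 to 205 in the controls, and 3 of 6 (Pecam1, Tek and Emcn) were called higher, against 11.6% of all genes. Their part in the result was not tested.

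Among the receptors, Ccr2 marks inflammatory monocytes and the macrophages derived from them, and Cx3cr1 marks patrolling monocytes and resident macrophages. Both were low, with means of 0.747 and 0.54 FPKM, and both were tested through the HF libraries. Without the filter on low values their adjusted p-values at week 5 were 0.0482 and 0.0319, and at week 3 they were 0.00365 and 0.000271. Ccr2 was at 0.370, 0.386, 0.291, 0.310 and 1.74 FPKM in the controls, at 2.35 and 2.10 in HF week 3 and at 2.58, 0.758 and 1.31 in HF week 5. Control library 5 stood apart from the other 4 and overlapped HF week 5, and all HF libraries lay above those 4. The rise was 1.42 at week 3 (SE 0.34, adjusted p = 0.00194), which passed in all 14 alternatives. At week 5 it was 0.91 (SE 0.29, interval 0.29 to 1.52, adjusted p = 0.0309), and 8 of 16 alternatives lost it, those without HF week 5 library 1 or 3, those without control library 1, 2, 3 or 4, the fit of only the groups compared and quantile normalization. Adjusted p ran from 0.000848 without control library 5 to 0.253 without HF week 5 library 1. Recovery libraries lay at 0.319 and 0.320 FPKM at week 7, 0.291 and 0.270 at week 9, 0.391, 0.405 and 0.505 at week 11, 0.389 and 0.610 at week 13. The week 19 libraries held 0.425, 0.269, 0.397, 0.718 and 0.420 FPKM. All 14 recovery libraries were below all HF libraries, and at Recovery week 19 Ccr2 had fallen by 1.03 from HF week 5 (SE 0.29, interval -1.65 to -0.42, adjusted p = 0.0158). Without HF week 5 library 1 that adjusted p was 0.147 (range 0.00614 to 0.147).

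Cx3cr1 was at 0.216, 0.112, 0.181, 0.162 and 0.971 FPKM in the controls, at 3.18 and 1.43 in HF week 3 and at 0.667, 0.811 and 1.51 in HF week 5. As for Ccr2, control library 5 overlapped HF week 5 and the other 4 controls lay below all HF libraries. The rise was 1.77 at week 3 (SE 0.31, adjusted p = 0.000159) and 0.90 at week 5 (SE 0.27, interval 0.32 to 1.47, adjusted p = 0.0231). The week 5 call was lost in 5 of 14 alternatives, without control library 2, 3 or 4, with only the groups compared and with quantile normalization (adjusted p 0.00176 to 0.0641). Recovery libraries lay at 0.0732 and 0.145 FPKM at week 7, 0.189 and 0.403 at week 9, 0.119, 0.178 and 0.205 at week 11, 0.458 and 0.798 at week 13. The week 19 libraries held 0.190, 0.0546, 0.313, 0.356 and 0.170 FPKM. All 5 of week 19 were below all HF libraries, and the fall from HF week 5 was -1.04 (SE 0.27, interval -1.61 to -0.47, adjusted p = 0.0104), which passed in the 14 alternatives that tested it. Cx3cr1 fell under 0.5 FPKM and was not tested without the HF week 3 libraries, without either of them at week 3, or without HF week 5 library 3.

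Markers of the cells that carry these receptors were measured beside them. The 6 monocyte markers summed to 5.27 to 7.14 FPKM in the controls, 24.2 and 33.1 in HF week 3, 9.77 to 22.5 in HF week 5, 5.89 and 6.15 at Recovery week 7 and 5.95 to 10.7 at Recovery week 19. No HF library overlapped the controls in this sum, but without Fn1 HF week 5 library 2, at 2.92 FPKM, lay in the control range of 1.67 to 3.36. Of the 4 monocyte markers tested, 1 was called higher at HF week 5, which was Fn1 (fibronectin, also made by fibroblasts), and of the 12 macrophage markers, which summed to 396 to 735 FPKM there, 1 was called higher, which was Aif1, against 11.6% of all genes. Their part in the result was not tested.

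The promoters of Ccr2 (chr9:124101933-124102232, plus strand) and Cx3cr1 (chr9:120068247-120068546, minus strand) are printed because these are the receptors that rose and fell with HF. Ccr2 holds none of the 3 motifs. Cx3cr1 holds the NF-kB type at bases 77 to 86, on the other strand.
Ccr2: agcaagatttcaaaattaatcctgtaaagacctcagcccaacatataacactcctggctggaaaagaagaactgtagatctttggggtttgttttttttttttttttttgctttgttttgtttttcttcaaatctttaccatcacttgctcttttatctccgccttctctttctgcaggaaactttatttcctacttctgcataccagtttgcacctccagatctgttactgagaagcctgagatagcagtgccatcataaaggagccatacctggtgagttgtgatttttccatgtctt
Cx3cr1: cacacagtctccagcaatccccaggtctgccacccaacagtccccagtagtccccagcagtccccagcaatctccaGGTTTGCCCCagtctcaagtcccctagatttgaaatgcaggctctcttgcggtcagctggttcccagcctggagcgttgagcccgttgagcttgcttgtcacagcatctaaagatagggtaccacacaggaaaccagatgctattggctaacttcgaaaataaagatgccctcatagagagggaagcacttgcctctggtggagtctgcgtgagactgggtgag
Of the 24 members tested, 16 had an entry in the promoter table. Of these 16, GAGGAAGT was in 0, against 3.20% of all 32,851 promoters, the NF-kB type in 7, against 50.8%, and TATAAA in 8, against 13.6%. The 8 with TATAAA were Ccl8, Ccl9, Ccl12, Ccl25, Cx3cl1, Cxcl9, Cxcl13 and Cxcr4. These are descriptions of letters in the window and not of bound sites. The other 8 were Ccl11, Cxcl16, Ccl2, Ccl7, Ccl5, Ccl4, Ccl24 and Cxcr7.

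The most abundant receptor was Cxcr7, with a mean of 24.0 FPKM, and the next was Cxcr4 with 5.42 FPKM. Cxcr7 was at 22.0, 22.0, 20.5, 23.6 and 21.0 FPKM in the controls, 37.6 and 25.6 in HF week 3, 21.3, 27.8 and 33.3 in HF week 5 and 18.6, 26.8, 24.3, 18.1 and 25.1 in Recovery week 19. HF week 5 library 1 lay in the control range and the other 2 lay above it. The difference was 0.30 at week 5 (interval -0.02 to 0.63, adjusted p = 0.167). At week 3 it was 0.50 (adjusted p = 0.0256), and that call was lost with median centring (0.0695), with only the groups compared and without HF week 3 library 1 (0.442, range 0.00406 to 0.442). Recovery week 7 held 25.1 and 21.9 FPKM, week 9 held 23.1 and 21.4, week 11 held 21.6, 18.5 and 24.7, and week 13 held 27.0 and 25.9. Cxcr4 was not called in any comparison with all libraries. It was at 1.85 and 13.7 FPKM in HF week 3, the lowest and the highest of all 24 libraries. At week 3 its log2 fold change was 0.04 (adjusted p = 0.953), without library 1 it was 1.33 (adjusted p = 0.00520) and without library 2 it was -1.26 (adjusted p = 0.00254). The control libraries held 5.67, 5.10, 3.80, 5.58 and 5.81 FPKM, and its libraries of Recovery weeks 7 and 9 held 3.92, 3.34, 2.77 and 4.97 FPKM. Weeks 11 and 13 gave 5.15, 4.35, 6.11, 6.81 and 4.92 FPKM. HF week 5 held 4.26, 6.2 and 6.95 FPKM and Recovery week 19 held 5.07, 8.39, 4.18, 4.46 and 6.59, and both groups overlapped the controls.

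HF week 3, with 2 libraries, was the time with the most calls. There 11 of 24 members passed, 8 higher and 3 lower, but so did 50.7% of all genes (23.1% higher and 27.6% lower). The 8 were Ccl8, Ccl9, Ccl25, Cxcl13, Cxcl16, Ccr2, Cx3cr1 and Cxcr7, and the 3 were Ccl11, Ccl2 and Cxcl12. Ccl8, Ccl25, Cxcl12, Cxcl13 and Cxcr7 missed the threshold without library 1, and Ccl2 without library 2, and Cx3cr1 was not tested without either. Macrophage markers summed to 958 and 607 FPKM in the 2 libraries, and fibroblast markers to 569 and 599. Called higher were 5 of 12 macrophage, 4 of 6 fibroblast, 4 of 6 endothelial and 3 of 5 platelet markers (23.1% of all genes). Called lower were 4 of 7 cardiomyocyte, 1 macrophage and 1 endothelial marker (27.6% of all genes). The part of these lists in the result was not tested.

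At Recovery week 7, 8 of 24 members differed from HF week 5, 2 higher and 6 lower, against 14.8% of all genes (8.05% higher and 6.75% lower). Ccl11 (1.24, adjusted p = 0.0318) and Cxcl14 (0.98, adjusted p = 0.0441) had risen. Ccl6 (-1.83, adjusted p = 0.0470), Ccl8 (-2.08, 0.0474), Ccl9 (-1.62, 0.0494), Cxcl16 (-1.19, 0.0268), Ccr2 (-1.22, 0.0322) and Cx3cr1 (-1.26, 0.0199) had fallen. The libraries of week 7 lay below all of HF week 5 for 14 of 24 members and above for 2, against 27% and 23.4% of all genes. The count was 0 without either Recovery week 7 library and with only the groups compared in the fit, 1 without HF week 5 library 1, and 5 without HF week 5 library 3. The share of all genes called fell too, to 3.58% and 2.98% without a Recovery week 7 library, to 2.47% with only the groups compared and to 6.52% without HF week 5 library 1, and it was 12.3% without HF week 5 library 3. With median centring it was 5, 2 higher and 3 lower. Several marker lists had calls in the same direction, against 6.75% of all genes. Called lower were 4 of 12 macrophage, 2 of 4 monocyte, 2 of 3 neutrophil, 3 of 6 endothelial, 2 of 6 fibroblast, 4 of 4 atrial, 2 of 3 epicardial and 2 of 2 adipocyte markers, with 0 higher in any of these lists. Their part in the result was not tested.

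**Figure D4:**
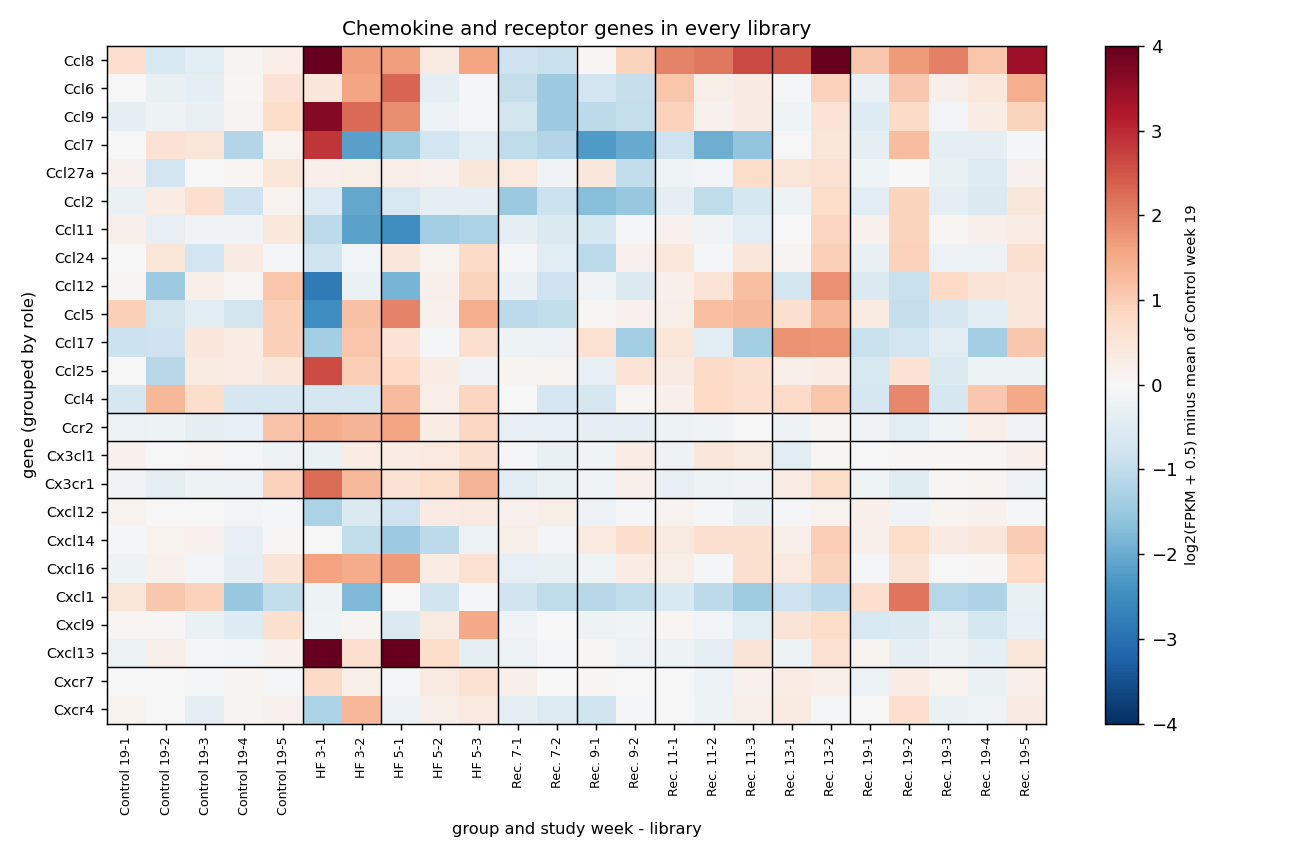
Log2(FPKM + 0.5) of the 24 members in each of the 24 libraries minus the mean of Control week 19 (colour, which stops at -4 and 4), with genes grouped by role (y axis) and libraries by group and week (x axis). The darkest red cells are Ccl8 in HF week 3 library 1 (103 FPKM) and Recovery week 13 library 2 (79.4 FPKM) and Cxcl13 in library 1 of HF weeks 3 and 5 (15.0 and 23.9 FPKM).

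Further genes of the pathway were taken from a fixed list. Of 8 related chemokines and receptors, 7 were tested, and none was called at HF week 5 against control or in Recovery week 19 against HF week 5. At an unadjusted p under 0.05 there were 3 and 1, against 36.5% and 36.8% of all genes. At HF week 3, Pf4 (platelet factor 4, Cxcl4), at 145 ± 54.1 FPKM (SD, n = 2) against 51.6 ± 16.0 in the controls (n = 5), and Ccbp2 (the scavenging receptor Ackr2), at 2.48 ± 1.39 FPKM against 0.711 ± 0.244, were higher, and Ccrl2 was lower, 3 of 7 against 50.7% of all genes. Of 28 genes that carry the receptor signal, 21 were tested. At HF week 5, 5 of 21 were called higher and 0 lower, against 11.6% and 12.4% of all genes. They were Arrb1 and Arrb2, the beta-arrestins that silence and internalise the receptors, Gng2, a G protein subunit, Elmo1, which joins receptors to Rac, and Dpp4, which cleaves chemokines. Arrb1 was at 5.93 ± 2.57 FPKM in HF week 5 (n = 3) and 2.97 ± 0.250 in the controls (n = 5), a log2 fold change of 0.82 (adjusted p = 0.00404). In Recovery week 19, Arrb1, Arrb2 and Elmo1 were called lower than in HF week 5 and 0 of 21 higher, against 12% and 12.3% of all genes, and Arrb1 was at 3.68 ± 0.371 FPKM (n = 5). HF week 3 had 9 higher and 2 lower, against 23.1% and 27.6% of all genes, and Recovery week 7 against HF week 5 had 3 lower (Vav1, Arrb1 and Arrb2) and 0 higher, against 6.75% and 8.05% of all genes. None was called at Recovery week 19 against control, and 0 of 21 had an unadjusted p under 0.05, against 2.88% of all genes.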

How the data were processed

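RNA of mouse hearts was sequenced. Per the study's methods, the authors mapped the read pairs to MGSCv37 (mm9) with TopHat, and Cuffdiff gave the deposited FPKM values, 1 column per library. The gene annotation, strandedness and scaling between libraries are not given in the sources used here. Columns were assigned to groups from the week that each is named for. The 5 columns named for the week 5 controls were left out, since fewer samples are labelled, and Recovery week 9 has 2 columns. 1 gene of this kind is not reported here and enters no count of members. The members and all lists of genes were chosen with earlier results of these data known.

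The test covered every gene whose mean over 24 libraries reached 0.5 FPKM. Values were taken as log2(FPKM + 0.5), so folds of low genes are understated. They were fitted in limma 3.58.1 (R 4.3.3), with 1 mean per group for 8 groups and eBayes with a trend (16 residual degrees of freedom before moderation). Tests were two-sided, and a gene was called at a Benjamini-Hochberg adjusted p under 0.05 over all 12,759 genes in each of 6 comparisons. The unadjusted threshold of the authors' methods was an alternative. The fit was checked on simulated data. Values in every library are given for members called in any comparison and for the 3 ligands and 3 receptors with the highest means. Other members were chosen after their values were seen, or are given by range.

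Alternatives were pseudocounts of 0.1 and 1, no filter, a mean of at least 1, an unadjusted p under 0.05, a fit restricted to the groups compared, median centring, quantile normalization, leaving out HF week 3 and leaving out each library. Relative depth came from the steps between low values. The absolute depth is unknown, and precision therefore rests on the spread between libraries. Promoters and gene order are from RefSeq tables of GRCm38.p6. Tables were handled in pandas 2.3.3 and numpy 2.4.6 under Python 3.11.15 and plotted with matplotlib 3.10.9.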

Additional observations from a re-analysis of the deposited data

Results flagged for a closer look

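In groups of 5 libraries, a library far from the other 4 was looked for among the 24 members tested. Dixon's criterion at 95% was used on the FPKM values. Chance meets it in about 1 in 20 groups only if values are normally distributed. It was met in 8 of 48 groups, in 3 libraries, each time by the highest value. The members share libraries, and how many of all genes met the criterion was not counted. The count of 8 therefore cannot be set against chance.

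Control week 19 library 5 was high for 2 receptors. It held 1.74 FPKM of Ccr2 (other controls 0.291 to 0.386) and 0.971 FPKM of Cx3cr1 (others 0.112 to 0.216). Its sums of monocyte and macrophage markers, 7.14 and 551 FPKM, were the highest of the controls. So were its T cell, dendritic cell, mast cell, platelet, endothelial, fibroblast, smooth muscle, cardiomyocyte and erythroid sums, and its total of 900,360 FPKM. Its atrial, epicardial and lymphatic endothelial sums were the lowest of the controls.

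Recovery week 19 library 2 was high for 4 ligands. It held 21.7 FPKM of Ccl7 (other libraries of the group 6.58 to 8.65), 9.75 FPKM of Ccl11 (others 5.28 to 6.24), 15.3 FPKM of Cxcl1 (others 1.00 to 5.11) and 1.11 FPKM of Ccl25 (others 0.192 to 0.453).

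Recovery week 19 library 5 held 53.5 FPKM of Ccl8 (others 10.2 to 20.2) and 2.18 FPKM of Ccl17 (others 0 to 0.454). Its macrophage marker sum was 868 FPKM, and that of library 2 was 830.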

How the results depend on the processing

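In HF week 5 against Control week 19, 5 members were called, and 3 were with a mean of at least 1 FPKM (25.3% of all genes), 3 with quantile normalization (26.6%) and 8 at an unadjusted p (36.5%). Leaving out each library gave 2 to 5, with 10.7% (without HF week 5 library 1) to 28.6% of all genes called. The count was 2 without control library 3 or 4 and 3 without HF week 5 library 1 or control library 1 or 2. In Recovery week 19 against HF week 5 the 5 calls became 3 with a mean of at least 1 FPKM (25.6% of all genes) and 9 at an unadjusted p (36.8%), and leaving out a library gave 4 to 6, with 12.2% (again without HF week 5 library 1) to 25.5% of all genes called. Recovery week 19 against control had 0 calls and 2 at an unadjusted p (2.88%), and 0 without any single library. HF week 3 against control had 11, and 8 to 13 without a library, where 30.1% to 62.9% of all genes were called, the lowest without HF week 3 library 1 and the highest without library 2. Recovery week 7 against HF week 5 had 8, and 2 without the filter (6.84% of all genes), 0 with only the groups compared (2.47%), 5 with median centring (14%) and 0 to 8 without a library. Recovery weeks 7 to 13 against control had 0, and 3 at an unadjusted p (6.9%) and 1 (Ccl8) with only the groups compared, and 0 without any single library. The cause of these changes was not tested. At HF week 3 against control, 3 members without a call changed direction between the libraries left out: Ccl7 ran from -2.17 to 2.86, Cxcr4 from -1.26 to 1.33 and Ccl5 from -2.49 to 1.19 on the log2 scale. Cxcr4 there was also -0.0115 with a pseudocount of 0.1 and -0.0274 with median centring. Cxcl9 at HF week 5 against control ran from -0.12 without HF week 5 library 3 to 0.93 without library 1, which called it (adjusted p = 0.0367). Among the 49 results of members with an unadjusted p under 0.05 or called in an alternative, no called one changed direction, and 647 values under the alternatives stayed on their side of the threshold, 87 lost a call, 36 gained one and 7 changed direction. Ccr2 and Cx3cr1 have means under 1 FPKM and were not tested at that limit, and Cx3cr1 was not without the HF week 3 libraries, either of them or HF week 5 library 3. No paired analysis was possible because the column numbers are not tied to the letters in the sample names. HF week 3 and several recovery weeks have 2 libraries, and where 1 was left out the other was assumed to vary like the other groups. The absolute depth of the libraries is unknown. Members under 0.5 FPKM were not tested in the main fit, and calls they have in alternatives cannot be relied on.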

Other observations

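Of the 33 members below 0.5 FPKM, 30 could be tested in a fit without the filter, which called 2, 3, 1 and 1 in 4 comparisons, against 13.6%, 13.7%, 31.8% and 6.84% of the 22,107 genes in that fit. In this order, Ccl22 and Cxcl11 were called at HF week 5 against control, Ccl22, Cxcl10 and Ccr7 in Recovery week 19 against HF week 5, Ccl21b at HF week 3 and Ccl22 at Recovery week 7. The Ccl21b call rests on HF week 3 library 2, at 8.90 FPKM, since library 1 and all controls were listed at 0. That of Cxcl11 rests on values near the floor, 0, 0.0714 and 0.114 FPKM in HF week 5 and 0 in all controls. Ccl22 was at 0.429, 0.244 and 0.815 FPKM in HF week 5 and at 0.0344 to 0.308 in the controls. Ccr7 was at 0.698, 0.249 and 0.266 FPKM in HF week 5 and at 0.0350 to 0.110 in Recovery week 19. Cxcl10, an interferon-induced ligand of Cxcr3 like Cxcl9, was at 0.770, 0.53 and 2.24 FPKM in HF week 5 and at 0.176, 0.711, 0.148, 0.0663 and 0.451 FPKM in Recovery week 19. As for Cxcl9, library 3 was the highest of HF week 5. These genes were chosen after their values were seen.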
